A study of Homo sapiens with 6 samples.

Results

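The Myc-Max-Mxd network genes examined here are the 10 genes MYC, MYCN, MYCL, MAX, MXD1, MXD3, MXD4, MXI1, MNT and MGA, of 20163 protein-coding genes in the annotation. For each gene, Myc peaks were taken whose summit, the position of highest coverage, lay within 5 kb of an annotated start site of transcription in the GENCODE basic set. For MYC, peaks within 500 kb were taken as well. Myc was mapped by chromatin immunoprecipitation and sequencing with the D3N8F antibody in MDA-MB-231, a triple-negative breast cancer cell line. Parental cells were set against TKO cells, the same line with TXNIP knocked out by CRISPR/Cas9 and isolated from single cells. A difference may belong to TXNIP loss or to the clone, and these cannot be told apart. The part of immunoprecipitation or library preparation in it was not tested. Both lines were grown in DMEM with fetal bovine serum and no further treatment, and each line gave 2 Myc libraries. The input libraries gave no peak list and were not analysed here.

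The proteins of this network share a basic helix-loop-helix leucine zipper and bind DNA as pairs. Max is the common partner. Myc, N-Myc and L-Myc pair with Max to activate transcription, preferring the E-box CACGTG. Mxd1, Mxd3, Mxd4, Mxi1 and Mnt pair with Max at the same motif and recruit Sin3 and histone deacetylases, which repress it. Mga pairs with Max inside a Polycomb-type repressor complex. Myc is known to repress its own gene in many cells, and the network is often described as a balance between Max partners. The question put to these data is where Myc itself occupied the genes for its own partners and antagonists, and how that differed between the parental and TKO cells.

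The peak lists held 3720 and 5719 peaks in parental replicates 1 and 2, and 27213 and 25887 in TKO replicates 1 and 2. The depth recovered from the peak statistics was about 26400000 and 22200000 reads in the parental libraries and 19900000 and 13000000 in the TKO libraries. These depths assume that the narrowest listed peak, 140 and 151 bp in the parental and 182 and 201 bp in the TKO libraries, is the length to which reads were extended. Peak height is given throughout as coverage at the summit divided by the genome average of the same library, on the scale used by the peak caller. A gene without a listed peak has no height, and the lowest height in any list ranged from 6.69 in TKO replicate 1 to 9.49 in parental replicate 1. Peak positions cannot show whether TXNIP was lost.

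The sequences around the summits are shown because the network proteins recognise the E-box and its variants. Each of the first set is the 101 bases centred on the TKO replicate 1 summit of the strongest site called in all 4 libraries. For MXD4 and MXI1, which had no such site, it is the strongest site called in both TKO libraries. Bases are from the forward strand of hg19, and capitals mark, on either strand, the E-box CACGTG, its variant CACGCG and the further variant CACATG.
MAX, chr14:65569591-65569691: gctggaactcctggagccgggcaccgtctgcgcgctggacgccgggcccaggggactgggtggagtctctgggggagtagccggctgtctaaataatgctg
MXD1, chr2:70141435-70141535: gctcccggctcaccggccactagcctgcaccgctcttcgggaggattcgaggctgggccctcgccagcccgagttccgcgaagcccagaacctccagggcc
MXD4, chr4:2262955-2263055: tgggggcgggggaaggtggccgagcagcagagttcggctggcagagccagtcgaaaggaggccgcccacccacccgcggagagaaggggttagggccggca
MXI1, chr10:111970979-111971079: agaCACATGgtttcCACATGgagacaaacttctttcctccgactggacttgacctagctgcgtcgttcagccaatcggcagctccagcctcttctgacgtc
MNT, chr17:2304918-2305018: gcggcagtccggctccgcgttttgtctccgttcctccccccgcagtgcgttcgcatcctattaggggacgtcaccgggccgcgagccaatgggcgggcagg
MGA, chr15:41952977-41953077: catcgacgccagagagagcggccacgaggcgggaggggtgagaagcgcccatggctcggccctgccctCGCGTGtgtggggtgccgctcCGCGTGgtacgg
None of these 6 windows held CACGTG. The MGA window held the variant CACGCG 2 times, read on the other strand as CGCGTG, and the MXI1 window held CACATG 2 times.

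The second set is the same length around peaks at network genes that did hold CACGTG within 50 bp of the summit, chosen after the motif search. MAX and MXD1 are centred on the parental replicate 1 summit, and MGA, MNT and MXD4 on a TKO replicate 1 summit.
MAX, chr14:65569553-65569653: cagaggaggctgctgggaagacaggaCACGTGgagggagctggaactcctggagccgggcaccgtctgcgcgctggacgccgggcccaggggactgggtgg
MXD1, chr2:70141368-70141468: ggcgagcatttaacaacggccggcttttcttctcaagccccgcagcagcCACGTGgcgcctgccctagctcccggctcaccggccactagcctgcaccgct
MGA, chr15:41954143-41954243: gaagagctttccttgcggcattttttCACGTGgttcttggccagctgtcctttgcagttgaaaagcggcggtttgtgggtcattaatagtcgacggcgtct
MNT, chr17:2303899-2303999: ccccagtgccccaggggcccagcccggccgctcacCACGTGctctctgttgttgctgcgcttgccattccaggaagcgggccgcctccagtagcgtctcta
MXD4, chr4:2264041-2264141: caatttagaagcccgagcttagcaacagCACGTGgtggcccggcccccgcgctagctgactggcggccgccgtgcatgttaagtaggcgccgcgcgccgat
The MAX and MXD1 windows overlap those of the first set, so the E-box lay inside the same promoter sites but off the TKO summit. Distances are to the middle of the motif. In MAX the E-box was 22 and 24 bp from the summits of parental replicates 1 and 2 and 60 bp from both TKO summits. In MXD1 it was 1 bp from the parental replicate 1 summit, which lay inside the motif. It was 157 bp from that of parental replicate 2, and 66 and 152 bp from the TKO summits. The MNT peak with an E-box had its summit in a coding exon, 405 bp past a start site, and was listed in TKO replicate 1 only.

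Myc peaks lay at 5 or more of the 10 network genes in every library, and the TKO libraries carried on average more peaks at each gene other than MYCN and MXD1. In parental replicates 1 and 2, 5 and 7 of the 10 genes had a peak, against 13.9% and 15.5% of all protein-coding genes. In TKO replicates 1 and 2 the counts were 8 and 9 of 10, against 54.5% and 55.4% of all protein-coding genes. The TKO libraries averaged 8.5 ± 0.707 genes (SD, n = 2) and the parental libraries 6 ± 1.41 (SD, n = 2). The groups did not overlap, but the two-sided exact permutation test gave p = 0.333, the smallest p that 2 libraries against 2 allow.

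Peaks at the network genes numbered 5 and 7 in the parental libraries and 24 and 29 in the TKO libraries, so the TKO mean was 4.42 times the parental mean (exact permutation p = 0.333). All peaks of the lists stood at a ratio of 5.63. When each list was cut to its 3720 strongest peaks by p-value, parental replicates kept 5 peaks each at 5 genes, and TKO replicates 1 and 2 kept 8 and 7 peaks at 6 genes each. The peaks merged into 32 sites. Of these, 5 were called in all 4 libraries, 2 in both TKO libraries and 1 parental library, 12 in both TKO libraries only, and 13 in a single TKO library. No site was called in parental cells alone. Of the 17162 merged sites within 5 kb of any protein-coding start site, 10.0% were called in all 4 libraries, 7.85% in both TKO libraries and 1 parental library, 46.4% in both TKO libraries only, 34.8% in a single TKO library and 0.425% in parental cells alone. Counted by gene, over all protein-coding genes, 10.9% had a peak in every library, 32.4% had one in both TKO libraries and no parental library, and 40.6% had none anywhere.

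**Figure D1:**
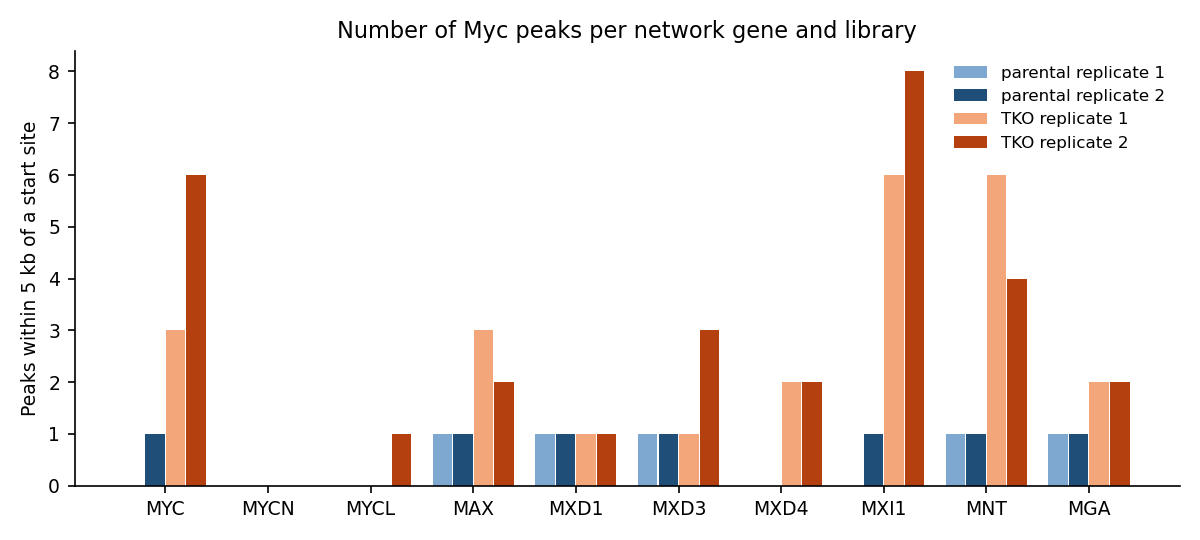
Number of Myc peaks (vertical axis) within 5 kb of a start site of each network gene, with a bar per library. MXI1 had the most peaks in a TKO library, 8 in TKO replicate 2, and a parental library listed at most 1 peak at any gene.

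Of the Myc family, MYC carried a promoter peak and MYCN and MYCL were nearly bare. MYC encodes the immunoprecipitated protein itself. Its strongest peak had a height of 26.0 in TKO replicate 1, 29.9 in TKO replicate 2 and 21.0 in parental replicate 2, and parental replicate 1 listed no peak within 5 kb. In height the TKO libraries were thus above the parental library with a value. MYC had 3 and 6 peaks in the TKO libraries and 0 and 1 in the parental ones. The peak shared by 3 libraries had its summit 119 bp before a start site in TKO replicate 2 and 38 bp before it in parental replicate 2. In TKO replicate 1 the strongest peak covered the same site, chr8:128747535-128748048, and in TKO replicate 2, where this site had a height of 23.7, the strongest was the next one described. A second TKO site lay 1356 and 1267 bp before the first start site, inside an intron of CASC11, a noncoding gene beside MYC. A further site of both TKO libraries lay within MYC, 0.720 and 0.725 kb past its first start site.

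The background under the MYC promoter peak was above that of the median peak. Local background, the coverage that the peak caller expects at the position from neighbouring or control reads, stood at 7.80 times the genome average under the strongest MYC peak of TKO replicate 1 and at 5.66 times under that of parental replicate 2. The median over all peaks was 3.0 and 3.54 in those libraries. By the fold over local background that the peak caller reported, the MYC promoter peak stood at percentile 3.50 in TKO replicate 1, 14.8 in TKO replicate 2 and 5.85 in parental replicate 2. The fold itself was 3.13, 4.18 and 3.37 in the same order, so TKO replicate 1 lay below parental replicate 2. The strongest MYC peak of TKO replicate 2 stood at percentile 40.0, and the shared TKO site within MYC at 65.2 and 61.0. The part of this background in the missing peak of parental replicate 1 was not tested.

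MYCN, the neuronal family member, had no peak within 5 kb in any of the 4 libraries. MYCL had 1 peak, in TKO replicate 2, with a height of 12.4 from 12 reads and a summit 417 bp before a start site. TKO replicate 1 and both parental libraries listed none there, so a difference between the cell lines was not detectable.

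MAX, the obligate partner, had a promoter site just upstream of a start site in every library. Its height was 29.2 and 26.6 in parental replicates 1 and 2 and 49.1 and 57.7 in TKO replicates 1 and 2. Both TKO libraries lay above both parental ones. As background for MAX and the genes below, 98.0% of the 2631 sites called in all 4 libraries had a higher mean log2 height in TKO cells. A higher mean TKO height was therefore the rule at such sites. The share of them with both TKO libraries above both parental ones was not counted. The summit was 190 and 192 bp before a start site in the parental libraries and 228 bp before it in both TKO libraries. The peak spanned 207 and 311 bp in the parental libraries and 526 and 573 bp in the TKO libraries. A further peak at the MAX start itself was listed in both TKO libraries, at heights of 19.3 and 19.6, and its TKO replicate 2 summit fell 0 bp from a CACGTG.

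Among the Mxd genes, MXD1 held the highest peak of any network gene in both TKO libraries. Mxd1 is a Myc antagonist known to rise as cells differentiate. The height at MXD1 was 27.0 and 27.4 in the parental libraries and 64.7 and 73.2 in the TKO libraries, which do not overlap. Each library had 1 peak there, spanning 378 and 332 bp in the parental replicates and widening to 1212 and 1092 bp in the TKO replicates. By fold over local background it stood at percentile 99.8 of both TKO lists and at 75.3 and 83.0 of the parental lists. Local background there was 3.17 times the genome average in both parental libraries and 1.53 and 1.64 times in the TKO libraries.

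MXD3, whose product is found mostly in dividing cells, had a height of 21.2 and 14.5 in the parental libraries and 40.2 and 36.1 in the TKO libraries. The groups did not overlap. The site was intronic, with summits at chr5:176739144, chr5:176739148 and chr5:176739161 in TKO replicates 1 and 2 and parental replicate 1, and at chr5:176739346 in parental replicate 2. MXD4 had no parental peak. In the TKO libraries it had 2 peaks each, the stronger with heights of 11.2 and 13.4 from 15 and 13 reads, close to the 10.4 and 12.4 that mark the lowest 5% of heights in those lists. The lowest 5% of heights in the parental lists ended at 13.9 and 13.7, so a parental peak of the same height at MXD4 could have gone unlisted.

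MXI1, which encodes the antagonist also called Mxd2, has 23 annotated start sites spread over 20 kb and carried 6 and 8 TKO peaks, the most of any network gene in TKO replicate 2 and level with MNT in TKO replicate 1. Its strongest peak lay in an intron, with a height of 38.7 and 44.3 in the TKO libraries and 23.4 in parental replicate 2. Parental replicate 1 listed none. Both TKO libraries were above the parental library with a value. At that peak the local background was 4.85 times the genome average in parental replicate 2 and 2.40 and 2.72 times in the TKO libraries. The other MXI1 peaks lay around its first start sites and again around the downstream ones. Among the latter was a coding-exon site, 196 and 190 bp past a start site, shared by both TKO libraries. None of these other peaks was listed in a parental library.

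MNT, the widely expressed antagonist that partners Max in resting and cycling cells alike, had a height of 19.7 and 24.98 in the parental libraries and 52.8 and 65.9 in the TKO libraries. The groups did not overlap. The summit lay upstream, 668 and 650 bp before a start site in the parental libraries and 570 and 580 bp in the TKO libraries. MNT also had 3 sites called in both TKO libraries only, all in introns, out to 4242 bp past a start site. MGA had a height of 21.2 and 19.3 in the parental libraries and 41.7 and 48.4 in the TKO libraries, again without overlap. Its summit lay in an intron, 374 to 424 bp past a start site in the 4 libraries. A second MGA peak, with CACGTG 22 bp from the summit in TKO replicate 1, was found in each TKO library and had no parental counterpart.

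**Figure D2:**
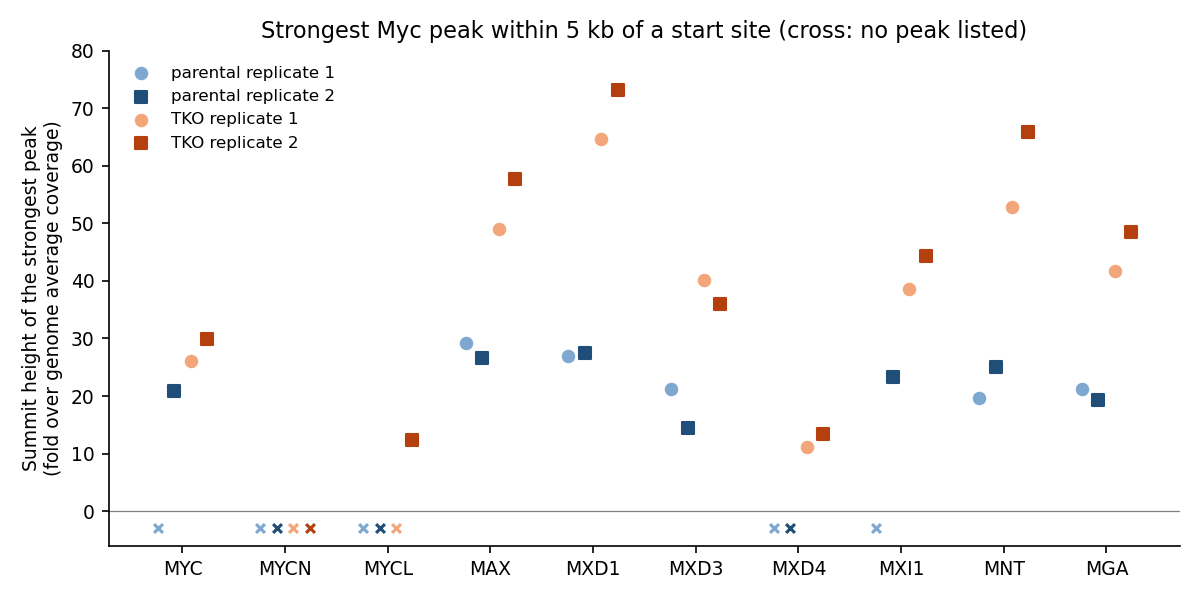
Summit height of the strongest Myc peak at each network gene (vertical axis, fold over the genome average coverage of the library), with a point per library and a cross where no peak was listed. The TKO points lie above the parental points at MAX, MXD1, MXD3, MNT and MGA, and MXD1 reached 73.2 in TKO replicate 2.

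The 5 network sites called in all 4 libraries were at MAX, MXD1, MXD3, MNT and MGA, and were tested among all 2631 such sites of the genome with limma. All 5 were higher in TKO cells (adjusted p from 2.40e-08 to 4.38e-05). This is the direction of the shared sites as a whole, of which 87.3% were called higher and 0.342% lower. The ratio of TKO to parental height was 2.66 at MNT (log2 1.41, SE 0.21), 2.53 at MXD1 (log2 1.34, SE 0.20), 2.22 at MGA (log2 1.15, SE 0.22), 2.17 at MXD3 (log2 1.12, SE 0.24) and 1.91 at MAX (log2 0.93, SE 0.21). The median of the 5 was 1.15 on the log2 scale, and that of all shared sites was 0.87. The spread in these tests was pooled over all shared sites, since each gene had only 2 values a group. A site enters only if every list called it, so genes without a parental peak, such as MXD4, have no ratio.

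Relative to the typical shared site, no network gene passed the test. After each library was centred on its median shared site, 1.44% of sites were called higher and 3.61% lower in TKO cells. Of the network genes 0 of 5 passed in limma. An unadjusted limma p under 0.05 with a higher TKO value was found at 2 of 5, MNT and MXD1. The same held for 223 of all 2631 shared sites. The centred ratio was 1.47 at MNT (limma adjusted p = 0.128) and 1.40 at MXD1 (limma adjusted p = 0.146). It was 1.23 at MGA, 1.2 at MXD3 and 1.06 at MAX. With the fold over local background in place of height, 234 of the 2631 shared sites were called higher and 279 lower after centring. MXD1 alone of the 5 passed, at a centred ratio of 2.15 (limma adjusted p = 0.00748), and the ratio at MAX turned to 0.875. MNT and MXD1 stood at percentiles 96.7 and 94.3 of the ratios at all shared sites, while MAX stood at 58.3.

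**Figure D3:**
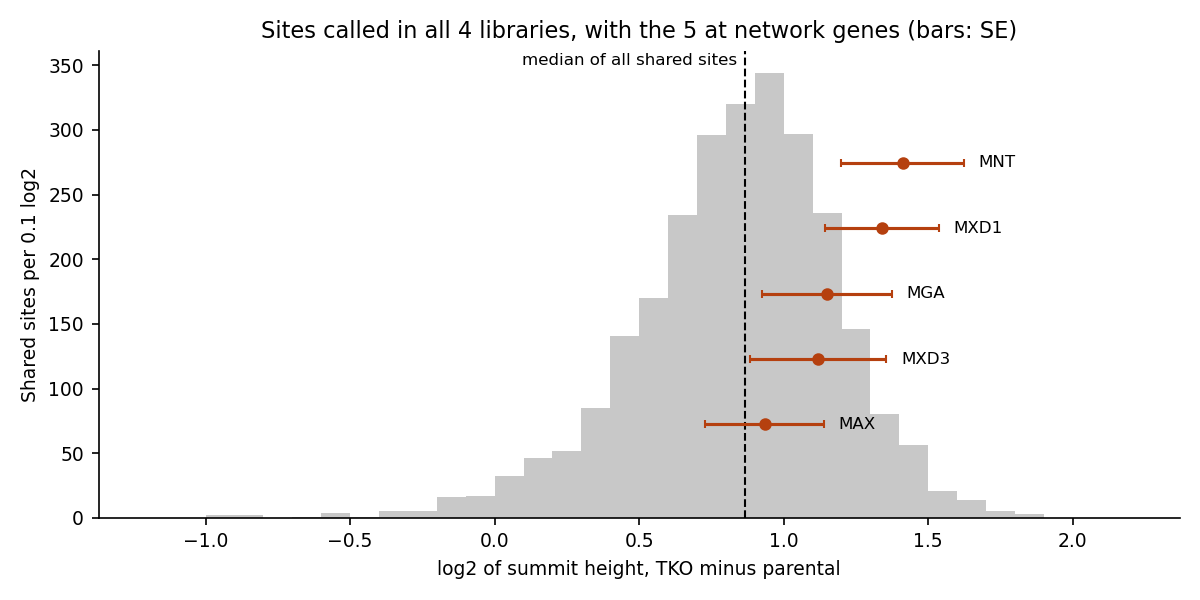
Histogram of the log2 difference in summit height, TKO minus parental, over the 2631 sites called in all 4 libraries (vertical axis, sites per 0.1 log2), with the 5 network sites as points at arbitrary heights and their standard errors. The dashed line marks the median of all shared sites, 0.87. MAX lies near it and MNT, at 1.41, is the farthest of the 5 to its right.

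Peaks at network genes lay within 1 kb of a start site in 5 of 5 and 7 of 7 cases in the parental libraries and in 17 of 24 and 22 of 29 in the TKO libraries. Of all peaks within 5 kb of a protein-coding start site, 90.8% and 83.5% of parental and 81.0% and 80.9% of TKO peaks did. The median GC content of the 101 bases at the summit was 66.3% and 68.3% in the parental libraries and 66.3% and 67.3% in the TKO libraries. The same medians over all peaks within 5 kb of a protein-coding start site were 64.4% and 62.4% in parental and 63.4% and 64.4% in TKO cells.

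The E-box was looked for at each summit. CACGTG lay within 50 bp of the summit in 2 of 5 and 1 of 7 peaks at network genes in the parental libraries, at MAX and MXD1 and at MAX, or 40.0% and 14.3%, with exact 95% binomial intervals of 5.27% to 85.3% and 0.361% to 57.9%. In the TKO libraries it lay in 3 of 24 and 1 of 29, at MGA, MNT and MXD4 and at MAX, or 12.5% and 3.45%, with exact 95% intervals of 2.66% to 32.4% and 0.0873% to 17.8%. Over all peaks the motif was present in 22.6% and 16.9% of parental and 8.82% and 7.58% of TKO windows. In windows 1 kb to either side it was present in 1.37% to 1.55%. With the window widened to 100 bp, the share at network genes was 40.0% and 28.6% in the parental and 25% and 13.8% in the TKO libraries, and over all peaks within 5 kb of a protein-coding start site it was 31.3% and 26.5% in the parental and 13.2% and 11.5% in the TKO libraries. Within 50 bp, the TKO share at network genes was 19.2 percentage points below the parental share on average (exact permutation p = 0.333). Leaving out parental replicate 1 reduced the gap to 6.31 points and leaving out parental replicate 2 widened it to 32.0 points. Searching the variants after the sequences were seen, CACGCG was found in 1, 0, 4 and 4 peaks at network genes in parental replicates 1 and 2 and TKO replicates 1 and 2. The motif was present in 11.6%, 7.78%, 5.95% and 5.98% of all peaks of those libraries. CACATG was found in 1, 3, 1 and 3 peaks, and in 15.0%, 16.2%, 10.8% and 7.92% of all peaks. Both strands were searched. The 3 motifs were counted separately, and a window can hold more than 1 of them. No CACGTG lay within 50 bp of a summit at MYC, MYCL, MXD3 or MXI1.

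Of the Myc peaks in the megabase around MYC, most lay inside PVT1, which also fills much of the window downstream of MYC. PVT1 is a long noncoding RNA gene, whose first start site lay 59.1 kb past the first MYC start site. It extends from chr8:128806783 to chr8:129199347, and peak counts were not scaled to length. Within 500 kb of a MYC start site there were 5 and 10 peaks in the parental libraries and 28 and 31 in the TKO libraries. The groups did not overlap, with means of 7.5 ± 3.54 and 29.5 ± 2.12 (SD, n = 2 each), a ratio of 3.93 and an exact permutation p = 0.333. With every list cut to 3720 peaks the order turned, with 5 and 6 parental peaks and 4 and 2 TKO peaks, a ratio of 0.545.

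The median protein-coding gene had 2 and 3 peaks in such a window in the parental libraries and 16 and 15 in the TKO libraries. As many peaks as at MYC were found at 23.1% and 10.4% of protein-coding genes in the parental libraries and at 26.8% and 22.9% in the TKO libraries. Of the MYC window's peaks, 5 and 9 in the parental libraries and 22 and 21 in the TKO libraries lay inside PVT1. Peaks before their nearest MYC start site numbered 0 and 1 in the parental and 5 and 6 in the TKO libraries. The TKO counts include peaks inside MYC, past its first start site. The median local background in the window was 3.49 and 4.50 times the genome average in the parental libraries and 4.91 and 4.89 times in the TKO libraries, against 3.49 and 3.54 times over all parental peaks and 3.0 and 2.73 times over all TKO peaks. Parental replicate 1 thus stood at its own median. The part of this local background in the peak counts was not tested.

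The window's peaks merged into 38 sites, of which 3 were called in all 4 libraries, 13 in both TKO libraries only and 14 in 1 TKO library only. Of all 33425 merged sites, 7.87% were called in all 4 libraries, 40.3% in both TKO libraries only and 40.9% in 1 TKO library only. The 3 shared sites all lay in introns of PVT1, 339, 371 and 439 kb past the last MYC start site. At 371 kb the height was 33.6 and 42.7 in the parental libraries and 55.8 and 47.4 in the TKO libraries. At 439 kb it was 34.3 and 37.9 in the parental and 58.8 and 47.4 in the TKO libraries. At 339 kb it was 24.1 and 23.4 in the parental and 47.6 and 34.0 in the TKO libraries, and TKO replicate 1 had CACGTG within 50 bp of the summit. Both TKO libraries lay above both parental libraries at each of the 3. How many of all 2631 shared sites had this was not counted, but mean log2 height was higher in TKO cells at 98.0% of them. The 3 sites were called higher in TKO cells by limma, by 1.36-fold at 371 kb (adjusted p = 0.0330), 1.46-fold at 439 kb (adjusted p = 0.00851) and 1.70-fold at 339 kb (adjusted p = 0.00154). These calls were weaker than those at the promoters. Without TKO replicate 1 none of the 3 passed (limma adjusted p = 0.247, 0.161 and 0.0920 in the same order), without parental replicate 1 the 371 kb site did not (limma adjusted p = 0.239), and with the fold over local background none did (limma adjusted p = 0.0939, 0.694 and 0.101). After centring on the median shared site their height ratios were 0.750, 0.809 and 0.937, and none passed (limma adjusted p = 0.236, 0.410 and 0.855). With the centred fold over local background the 439 kb site was called lower, at 0.573 (limma adjusted p = 0.0373). It was 1 of 279 such calls among all 2631 shared sites. By height the 3 sites stood at percentiles 12.1, 18.4 and 37.4 of the ratios at all shared sites, below those of the 5 promoter sites.

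The highest peak of the window was the 439 kb site in parental replicate 1 and TKO replicate 1, and the 371 kb site in parental replicate 2. In TKO replicate 2 it was a PVT1 intron site 119 kb past the first MYC start site, with a height of 49.5. That site was also called in TKO replicate 1, at 37.9, and in parental replicate 2, at 35.5, and not in parental replicate 1. The nearest start site was one of PVT1 for each of these. At the first PVT1 start site the heights were 17.5 in parental replicate 1, 34.2 in TKO replicate 1 and 30.9 in TKO replicate 2. Parental replicate 2 had no peak there, and its nearest, at a PVT1 start site 60.5 kb past the first MYC start site, had a height of 19.3.

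**Figure D4:**
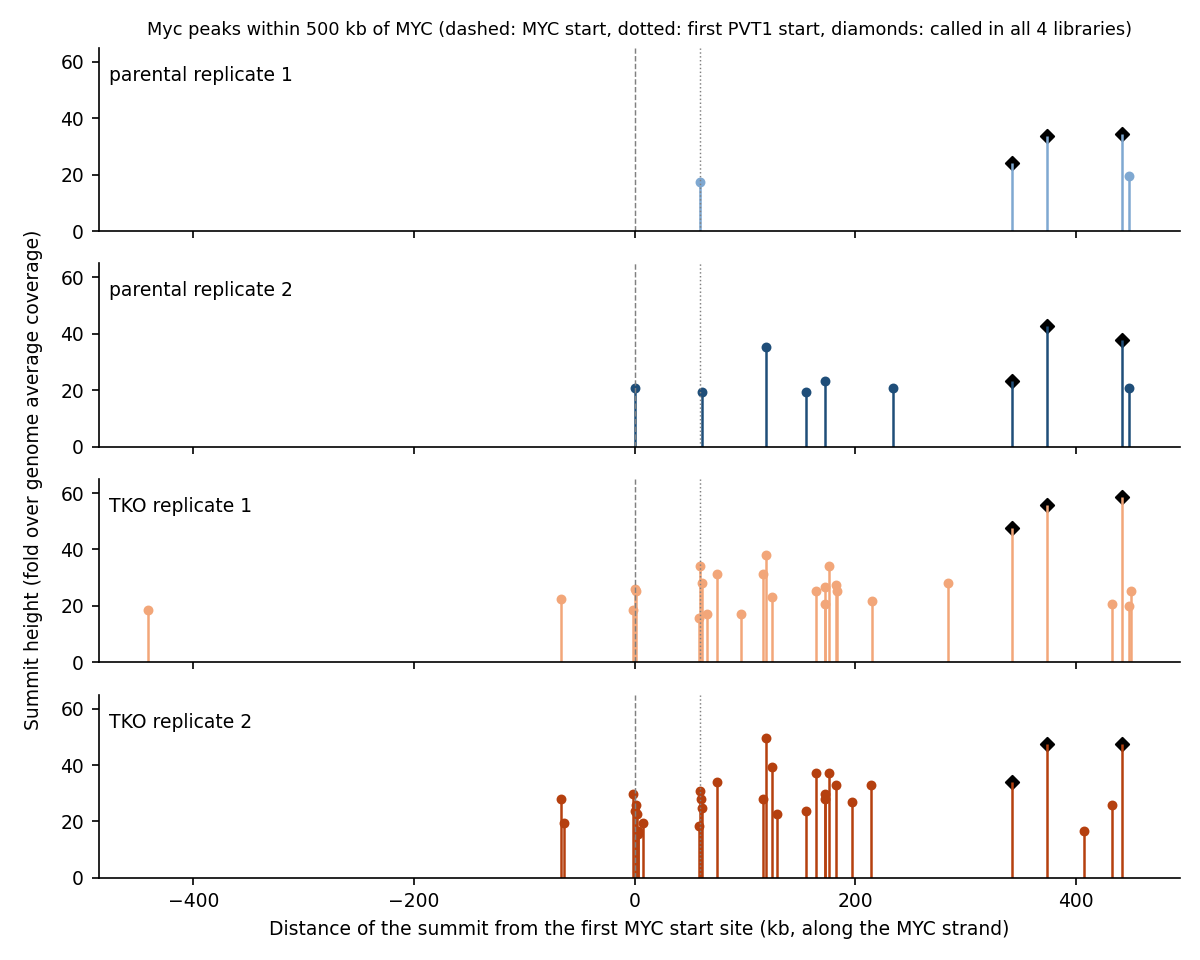
Myc peaks within 500 kb of MYC in each library, by distance of the summit from the first MYC start site (horizontal axis, kb) and summit height (vertical axis, fold over the genome average coverage). Parental replicates 1 and 2 hold 5 and 10 peaks and TKO replicates 1 and 2 hold 28 and 31, mostly past the dotted line that marks the first PVT1 start site. Black diamonds are the 3 sites called in all 4 libraries.

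Genes for the proteins that work with this network were counted in the same way. Of all protein-coding genes, 13.9% and 15.5% had a peak in the parental libraries and 54.5% and 55.4% in the TKO libraries. All 8 corepressor genes of the Mxd and Mnt proteins had a peak in both TKO libraries and 3 of 8 had one in each parental library. The highest were HDAC2, a histone deacetylase, at 19.0 and 19.3 in parental and 62.5 and 78.3 in TKO cells, and NCOR1, a corepressor scaffold, at 34.3 and 23.4 in parental and 49.8 and 47.4 in TKO cells. Of the 8 genes of the MGA complex, 1 and 1 had a peak in parental cells and 7 and 5 in TKO cells. E2F6, its DNA-binding repressor, was at 16.8 and 16.1 in parental and 24.5 and 35.0 in TKO cells. CBX3, a heterochromatin protein, was at 40.2 and 37.1 in TKO cells with no parental peak, and YAF2 had no peak in any library.

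MLX, MLXIP and MLXIPL, which encode the sugar-sensing Mondo proteins and their partner Mlx, all had a peak in both TKO libraries. In parental cells MLX alone had a peak, in replicate 1, at 27.7 against 41.7 and 46.4 in the TKO libraries. MLXIP was at 34.2 and 30.9 in TKO cells only. Of 13 Myc cofactor genes, 4 and 3 had a peak in parental cells and 8 and 10 in TKO cells. RUVBL1, an ATPase, was at 29.9 and 25.8 in parental and 66.9 and 56.7 in TKO cells, and KAT5, an acetyltransferase, at 25.5 and 22.6 in parental and 66.2 and 63.9 in TKO cells. TRRAP and ZBTB17 had no peak in any library.

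Of 9 genes for Myc turnover, 2 and 2 had a peak in parental cells and 9 and 8 in TKO cells. FBXW7, the ubiquitin ligase subunit that marks Myc for degradation, was at 18.2 and 17.7 in parental and 34.2 and 29.9 in TKO cells. AURKA, a mitotic kinase that shields N-Myc from it, was at 52.1 and 59.8 in TKO cells with no parental peak. Of 11 other genes for E-box binding factors, 1 and 2 had a peak in parental cells and 8 and 9 in TKO cells. TFAP4, a factor of the same helix-loop-helix class, had the highest peaks, at 44.5 and 44.3 in parental and 84.0 and 102 in TKO cells. BHLHE40, a repressor of the clock, was at 21.0 in parental replicate 2 and at 30.5 and 34.0 in TKO cells, and TFEC had no peak in any library. The shares of these lists are read against the 13.9% and 15.5% of all protein-coding genes in the parental libraries and the 54.5% and 55.4% in the TKO libraries. In parental cells the MGA complex, at 1 and 1 of 8, and the other E-box factors, at 1 and 2 of 11, lay near those shares. So did the MGA complex in TKO replicate 2, at 5 of 8, and the Myc cofactors in TKO replicate 1, at 8 of 13. In parental replicate 2 the Myc cofactors, at 3 of 13, and the Myc turnover genes, at 2 of 9, were not far above.

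**Figure D5:**
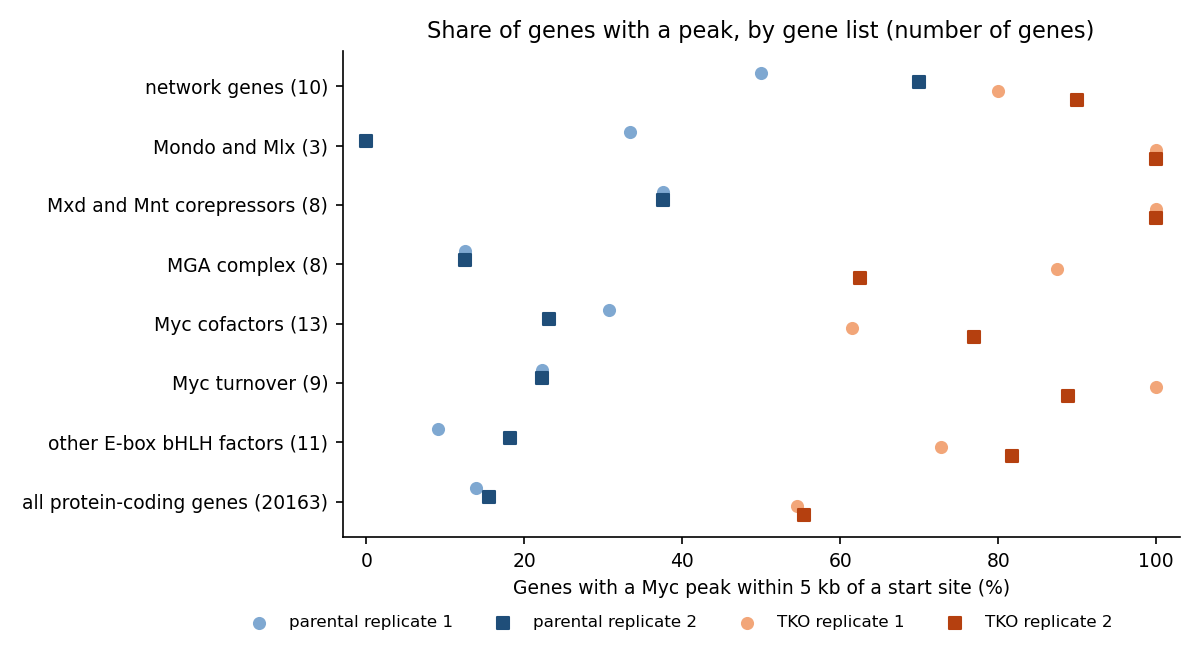
Share of genes with a Myc peak within 5 kb of a start site (horizontal axis, %) for the network genes, the 6 related gene lists and all protein-coding genes, with a point per library and the number of genes in brackets. In both cell lines the network genes lie to the right of all protein-coding genes, at 5 and 7 of 10 in the parental and 8 and 9 of 10 in the TKO libraries.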

How the data were processed

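Myc peak lists from 2 parental and 2 TKO libraries were used, with samples grouped by their titles. The labels describe 50-cycle single reads; the submitters' processing notes name Novoalign 3.08.02 and MACS2 2.1.1.20160309 on hg19, and the authors called peaks in each library. The deposited lists give per peak a score, a fold over local background (a ratio), −log10 p-values and q-values and the summit offset. The lowest listed −log10 q-value lay between 2.03 and 2.07 in every list. How duplicate reads were treated is not given in the sources used here.

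From the fold and p-value, both computed by MACS2 from a Poisson background, the reads at each summit and the expected background were solved (100% of peaks, p matching tolerance 0.002), which was tested on simulated data. Height is reads times the scaling factor of the library (0.837 and 0.997 in parental replicates 1 and 2, 1 in both TKO libraries, solved from the same values), divided by the lowest expected background. Depth assumes a genome of 2.7e+09 bases and an extension length equal to the narrowest peak. Start sites were from GENCODE 44 mapped to GRCh37, for transcripts tagged basic. Peaks overlapping by 1 bp were merged into sites. log2 heights at sites called in all 4 libraries were fitted in limma 3.58.1 (R 4.3.3) with a trended empirical Bayes prior and Benjamini-Hochberg adjustment over all shared sites, at an adjusted p threshold of 0.05. Counts per library were compared by two-sided exact permutation tests in Python 3.11.15 with scipy 1.17.1. Binomial intervals are Clopper-Pearson at 95% and cover counting error only. Permutation p-values compare 2 libraries per cell line. The limma p-values rest on the spread between those libraries, pooled over all shared sites.

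All 10 genes are named. From the related lists, the 2 genes with the highest mean height and those with no peak are named, and around MYC the peaks found in all libraries and the highest of each. Members and lists were chosen with earlier results of these data known. Sequence of chromosome 8 and of UTRs is not printed. For 1 gene of the related lists and 1 summit sequence, the values are not reported here.

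Alternatives were stricter −log10 q-value or fold minimums of 5, lists of equal length, start-site windows of 1 and 10 kb, a MYC window of 250 kb, protein-coding transcripts only, any base of a peak in place of its summit, a motif window of 100 bp, RPM, the fold over local background, sites joined by summits within 100 bp, a replicate block and leaving out each library.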

Additional observations from a re-analysis of the deposited data

How the results depend on the processing

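Of 72 alternative values, 63 kept their direction and stayed within 1.5 times the reported value, 8 moved further and 1 reversed. Some of the 63 could not have moved. These were the differences of means under a replicate block, and the calls beyond the median site with RPM, where centring removes the scaling. With lists of equal length, the TKO excess in network genes with a peak was 1 gene in place of 2.5, the ratio of peaks at network genes was 1.5 in place of 4.42, and the ratio of peaks within 500 kb of MYC reversed to 0.545. A MYC window of 250 kb gave a ratio of 6.57. With sites joined by summits within 100 bp, MXD3 and the 439 kb PVT1 site were no longer shared by all libraries. This left 4 network sites, all called higher as scaled. With the fold over local background, 1 of the 5 network sites passed beyond the median site, against 0 with heights. The site was at MXD1, and 234 of all 2631 shared sites were called higher in that setting. The cause of these changes was not tested. Leaving out each library gave an excess of 1.5 to 3.5 genes (1.5 without parental replicate 1), a MYC window ratio of 2.95 to 5.90 (5.90 without parental replicate 2) and an E-box difference of -32.0 to -6.31 percentage points (-6.31 without parental replicate 1, -32.0 without parental replicate 2). For peaks at network genes the range was 3.79 to 5.30, and for the median log2 ratio of the shared network sites 1.09 to 1.26, with 5 of 5 sites called each time.

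Replicate numbers are shared between the cell lines but nothing in the labels ties them, and deviations of same-numbered libraries correlated at 0.0127 over the shared sites. A replicate block cannot change a difference of means in this balanced design. The excess of 2.5 genes, the E-box difference of -19.2 points and the median log2 ratio of 1.15 were thus the same by construction. With the block, the ratio of peaks at network genes was 4.46 and the MYC window ratio 4.17. In limma with the block, 5 of 5 sites were called as scaled and 0 beyond the median site. An absent peak is limited by depth and local background, so heights below about the lowest 5% of a list, 10.4 to 13.9 across libraries, can go unlisted.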
